A study of Mus musculus with 8 samples.

Results

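The lower part of glycolysis runs from the splitting of fructose-1,6-bisphosphate by aldolase to the conversion of pyruvate into lactate. It was followed here through the RNA of 10 genes: Aldoa and Aldoc (aldolase), Tpi1 (triosephosphate isomerase), Gapdh (glyceraldehyde-3-phosphate dehydrogenase), Pgk1 (phosphoglycerate kinase), Pgam1 (phosphoglycerate mutase), Eno1 and Eno2 (enolase), Pkm (pyruvate kinase) and Ldha (lactate dehydrogenase). The genes were chosen by symbol from the enzymes of these steps, with earlier results of these data known, and pseudogenes were left out. Other isoforms of the same steps, such as Ldhb and Pgam2, were listed apart. All 10 were found among the 53465 genes of the count table and all 10 passed the filter on low counts, which kept 14369 genes. Of these 10 genes, 7 were lower in cells cultured in normoxia (21% O2) than in cells cultured in hypoxia (2% O2), and none was higher, where 16.5% of all tested genes were called lower and 18% higher. Aldoc fell most, by 60.3%, whereas Pkm, the most abundant of the 10 in reads, stayed at the same mean level and Eno2 was not called.

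The RNA came from mesenchymal stem cells (MSCs), cultured stromal cells with the capacity to become osteoblasts, adipocytes and chondrocytes, taken from the hind limb bones of wild-type male C57BL6/N mice aged 3 to 5 months. All cells shared the same wild-type genotype and were grown out of bone fragments, so that they are a cultured and expanded population. Per the labels they were purified by flow cytometry on day 12, for which the methods of the study name a CD45-/Ter-119-/Sca-1+/CD140a+ gate, and per those methods they were then kept at 2% O2 or moved to 21% O2 for 7 days. There were 4 samples per condition, numbered 1 to 4 in each, which the study calls biologically independent. The study describes the sorted cells as divided between the conditions, but does not say whether samples of the same number shared a sort.

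Aldolase cleaves the 6-carbon sugar into 2 triose phosphates, triosephosphate isomerase interconverts them, and the later enzymes turn the triose into pyruvate while making ATP and NADH. Lactate dehydrogenase reduces pyruvate to lactate and so gives back the NAD+ that Gapdh needs, which lets glycolysis run without oxygen. Many of these genes are textbook targets of the hypoxia-inducible factors (HIFs), transcription factors that are degraded when oxygen is plentiful and that bind short DNA sites with a core of ACGTG or GCGTG.

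The stretches of 250 bases directly before the gene starts of 4 of the genes are shown because HIF sites in such stretches are the textbook link between oxygen and these genes. Sequences and starts were taken from RefSeq on the mouse assembly GRCm38.p6, with the most upstream listed start for each gene, and none of the 4 stretches overlapped an annotated exon. Capitals mark ACGTG on either strand, which reads as CACGT on the other strand and as CACGTG where both overlap. The stretches are chrX:106186850-106187099 for Pgk1, chr19:41911621-41911870 for Pgam1, chr7:46845554-46845803 for Ldha and chr4:150236458-150236707 for Eno1, all on the plus strand and written 5′ to 3′.
Pgk1: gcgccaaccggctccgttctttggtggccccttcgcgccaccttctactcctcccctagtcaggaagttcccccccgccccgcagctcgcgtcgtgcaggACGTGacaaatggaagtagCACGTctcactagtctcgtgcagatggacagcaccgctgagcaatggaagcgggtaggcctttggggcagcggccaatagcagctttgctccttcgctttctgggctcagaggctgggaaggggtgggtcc
Pgam1: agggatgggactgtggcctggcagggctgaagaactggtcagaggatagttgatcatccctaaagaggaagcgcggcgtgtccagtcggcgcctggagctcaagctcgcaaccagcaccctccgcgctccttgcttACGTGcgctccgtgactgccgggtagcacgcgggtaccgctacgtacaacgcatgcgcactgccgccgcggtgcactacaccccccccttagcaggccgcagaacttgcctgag
Ldha: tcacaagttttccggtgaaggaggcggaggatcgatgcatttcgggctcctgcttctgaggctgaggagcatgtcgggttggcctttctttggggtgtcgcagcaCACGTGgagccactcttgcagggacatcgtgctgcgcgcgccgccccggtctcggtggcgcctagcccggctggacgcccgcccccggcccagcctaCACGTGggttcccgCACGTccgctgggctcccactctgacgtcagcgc
Eno1: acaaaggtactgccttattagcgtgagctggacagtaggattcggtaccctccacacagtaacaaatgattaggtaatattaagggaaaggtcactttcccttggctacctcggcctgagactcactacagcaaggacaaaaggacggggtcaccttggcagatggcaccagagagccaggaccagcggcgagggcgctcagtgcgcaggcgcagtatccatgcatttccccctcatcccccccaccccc
Pgk1 held 2 matches, with 145 and 126 bases between the match and the gene start. Ldha held 3, at 139, 42 and 29 bases, of which 2 were the palindrome CACGTG. Pgam1 held 1 at 109 bases, and the other 7 genes, Eno1 among them, held none in the stretch used. The choice of start sets this count, since Aldoa had a match in 2 of its 3 listed windows. Pkm and Ldha each had a match in 1 of 2. Of the 250 bases used, 193 for Aldoa, 208 for Pkm, 138 for Tpi1, 105 for Aldoc and 61 for Eno2 lay in annotated exons. The Ldha stretch lies inside the span given for the Ldha gene below, which begins upstream of the start used here. The 10 genes thus had a match in 30% of their stretches, against 16.5% of 27025 genes and 20.1% of the 11963 genes with a GC content in the same range, 50.4% to 67.2%. The other core, GCGTG on either strand, stood in 40% of the 10 stretches in 28.3% of those of all genes and in 36.5% of those in the same GC range. It was found in Aldoc, Gapdh, Pgam1 and Eno1. Such matches are letters in a window and say nothing of binding.

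Levels are given as CPM, the count of a gene divided by the size of its library and put on a common scale, with library sizes adjusted by TMM, the trimmed mean of M-values, and per-sample values run from replicate 1 to replicate 4. A log2 change is normoxia minus hypoxia from limma-trend, on log2 CPM with a prior count of 3, with its standard error (SE) and a Benjamini-Hochberg adjusted p over the 14369 genes. Calls were made at an adjusted p under 0.05. Samples carried 12898291 to 25132141 counts, so that 3 counts were worth 0.119 to 0.233 CPM, and hypoxia replicate 1 was the deepest. Among all tested genes 34.6% were called, 16.5% lower and 18% higher in normoxia. With total counts in place of TMM the split was 1575 lower and 3611 higher, against 2378 and 2592, and the same 7 genes were called.

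**Figure D1:**
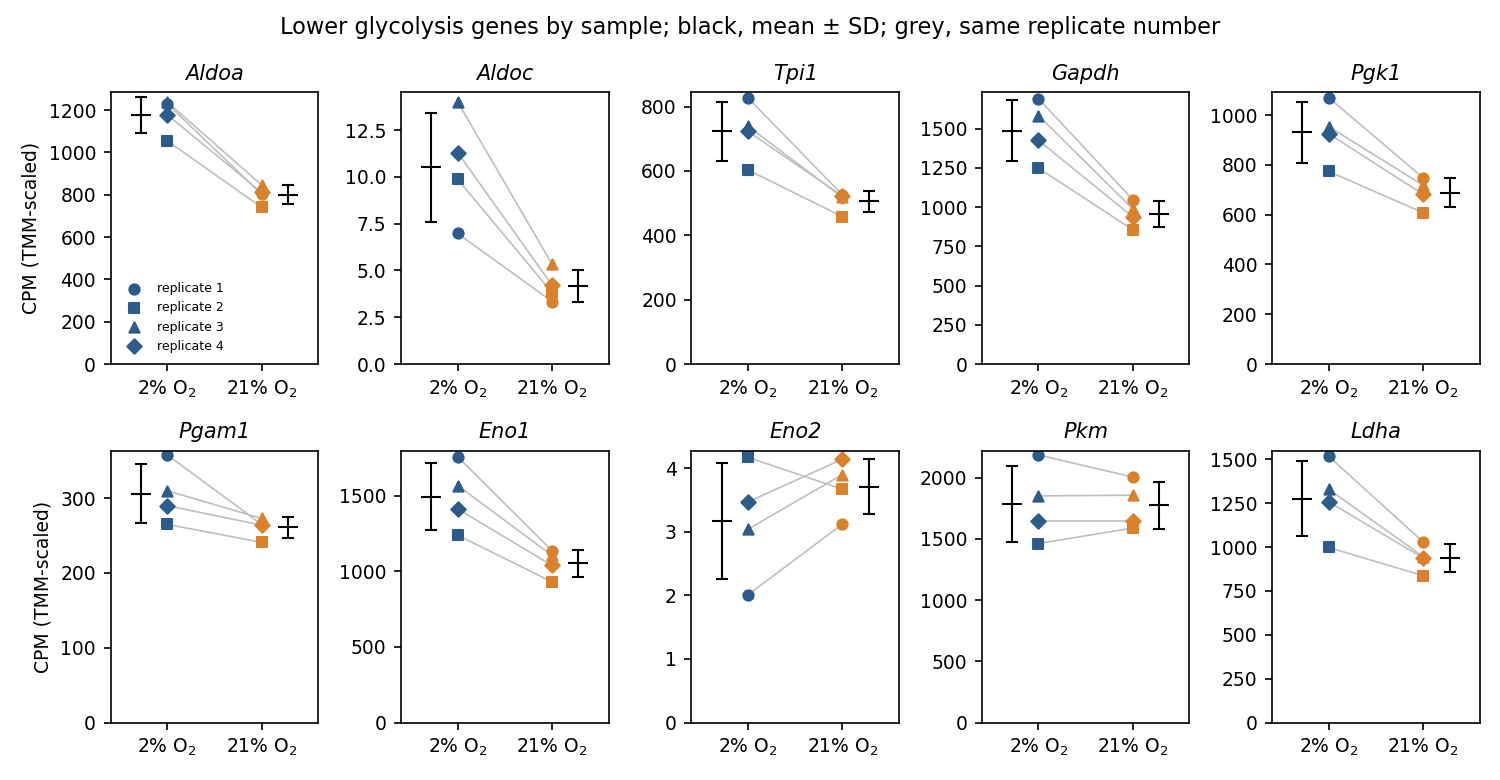
CPM scaled by TMM (linear axes from 0) of the 10 genes in each sample at 2% and 21% O2, with symbols for replicates 1 to 4, grey lines joining the same replicate number and black bars for mean ± SD of 4 samples. Hypoxia and normoxia do not overlap for Aldoa, Aldoc, Tpi1, Gapdh, Pgk1 and Eno1, and the lines of Pkm share no direction.

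Aldoa encodes the aldolase of muscle and most other tissues (ENSMUSG00000030695, chr7:126795234-126800751, minus strand). It stood at 1230, 1055, 1238 and 1178 CPM in hypoxia and at 802, 740, 846 and 811 CPM in normoxia. Every normoxic sample lay below every hypoxic one, and the spread within each condition was small beside the gap. The mean fell from 1175 ± 84.5 to 800 ± 44.1 CPM (SD, n = 4), a log2 change of -0.55 (SE 0.071, adjusted p = 0.0002, limma-trend). A second row with the same symbol (ENSMUSG00000114515), a gene model next to it at chr7:126800790-126809108, held only 4 to 17 counts per sample. Its log2 change was -0.52 (SE 0.28, adjusted p = 0.17, limma-trend), and it was kept out of the 10 genes.

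Aldoc encodes the aldolase best known from brain (ENSMUSG00000017390, chr11:78322968-78327781, plus strand) and rested on 45 to 179 counts per sample. Its levels were 6.98, 9.87, 14.0 and 11.3 CPM in hypoxia and 3.34, 3.82, 5.34 and 4.22 CPM in normoxia. The groups did not overlap, although hypoxia replicate 1, the deepest library and the highest sample for most other genes of the set, was here the lowest hypoxic sample. The mean was 10.5 ± 2.92 CPM in hypoxia and 4.18 ± 0.853 CPM in normoxia (SD, n = 4), a 2.52-fold difference, with a log2 change of -1.27 (SE 0.2, adjusted p = 0.0007, limma-trend). Only 77 of the 14369 genes had a more negative log2 change, and 173 genes (1.2%) were called with a log2 change of -1 or lower. Aldoc was the single gene of the 10 among them.

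The difference in Aldoc was set against Aldoa within each sample, since a ratio inside a library is independent of library scaling. Counts per length of coding transcript gave Aldoc 0.315%, 0.518%, 0.624% and 0.532% of aldolase reads in hypoxia and 0.231%, 0.286%, 0.35% and 0.289% in normoxia. Aldoa made up nearly the whole aldolase pool in every sample. The share was lower in normoxia in 4 of 4 same-numbered pairs, but hypoxia replicate 1 lay within the normoxic range, and a two-sided exact permutation test gave p = 0.0571 (n = 4 per group; also 0.0571 after adjustment over the 3 shares tested).

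Tpi1, whose enzyme interconverts the triose phosphates (ENSMUSG00000023456, chr6:124810586-124814296, minus strand), measured 827, 603, 739 and 723 CPM in hypoxia and 526, 458, 518 and 522 CPM in normoxia. All normoxic samples were below all hypoxic samples, and normoxia replicate 2 stood apart as the lowest. The mean went from 723 ± 92.1 to 506 ± 32.1 CPM (SD, n = 4), with a log2 change of -0.51 (SE 0.089, adjusted p = 0.0012, limma-trend).

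Gapdh makes 1,3-bisphosphoglycerate and NADH and is also a customary reference gene (ENSMUSG00000057666, chr6:125161715-125166467, minus strand). It was found at 1692, 1249, 1584 and 1426 CPM in hypoxia and at 1048, 856, 989 and 938 CPM in normoxia. The conditions were separate, with the lowest hypoxic sample, replicate 2, above the highest normoxic one, replicate 1. Gapdh fell by 35.6%, from 1488 ± 193 to 958 ± 81.5 CPM (SD, n = 4), with a log2 change of -0.63 (SE 0.097, adjusted p = 0.00055, limma-trend), the most negative change of the genes above 100 CPM in the set.

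Gapdh was also the gene of the set with the most near-identical copies in the annotation, so that its level is uncertain. The table listed 77 genes with at least 95% identity to Gapdh over at least 300 bases, and together they held 116588 counts, equal to 79.3% of the 146993 counts of Gapdh itself. The largest, Gm12070, held 47296. Whether reads with several places in the genome were counted is not stated. The copies summed to 1190 ± 149 CPM in hypoxia and 756 ± 56.6 CPM in normoxia (SD, n = 4), and made up 43.7% to 44.9% of Gapdh plus copies in every sample. Gapdh and its copies were thus lower in near-equal proportion, and their sum gave a log2 change of -0.64 (SE 0.1, adjusted p = 0.00062, limma-trend).

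Pgk1 carries out the first ATP-making step (ENSMUSG00000062070, chrX:106187100-106203699, plus strand). Its levels were 1070, 774, 954 and 925 CPM in hypoxia against 748, 608, 718 and 682 CPM in normoxia. Hypoxia replicate 2 came close to normoxia replicate 1, but the groups did not overlap. The mean fell from 931 ± 122 to 689 ± 59.9 CPM (SD, n = 4), with a log2 change of -0.43 (SE 0.096, adjusted p = 0.0049, limma-trend). One near-identical copy, Pgk1-rs7, held 2943 counts over all samples, 3.03% of those of Pgk1.

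Pgam1 moves the phosphate of phosphoglycerate from carbon 3 to carbon 2 (ENSMUSG00000011752, chr19:41911923-41918660, plus strand). It stood at 358, 265, 310 and 290 CPM in hypoxia and at 265, 241, 273 and 264 CPM in normoxia. Here the groups overlapped, since hypoxia replicate 2 was level with normoxia replicate 1 and below normoxia replicate 3. The means were 306 ± 39.5 and 261 ± 13.7 CPM (SD, n = 4), and the log2 change of -0.22 (SE 0.084, adjusted p = 0.058, limma-trend) missed the threshold. With the replicate number as a block the same change had an SE of 0.053 and an adjusted p of 0.0015, and Pgam1 was lower in 4 of 4 pairs. It also passed without hypoxia replicate 2, at -0.29 (adjusted p = 0.015, limma-trend), but not with any other single sample left out. Without hypoxia replicate 1 the change was -0.14 (adjusted p = 0.12), and with total counts -0.13 (adjusted p = 0.22, both limma-trend). A near-identical pseudogene, Pgam1-ps2, held 6975 counts, 20.6% of those of Pgam1, and the sum of both changed by -0.21 (SE 0.085, adjusted p = 0.07, limma-trend).

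Eno1, the enolase of most tissues, makes phosphoenolpyruvate (ENSMUSG00000063524, chr4:150236721-150248879, plus strand). Hypoxic samples held 1756, 1238, 1566 and 1411 CPM and normoxic ones 1135, 929, 1104 and 1038 CPM. The groups were separate by the distance from hypoxia replicate 2 to normoxia replicate 1. Eno1 fell from 1493 ± 221 to 1052 ± 91.1 CPM (SD, n = 4), a log2 change of -0.50 (SE 0.1, adjusted p = 0.0032, limma-trend). Its 3 near-identical copies, led by Gm4735, held 8.44% as many counts as Eno1, and adding them left the change at -0.50.

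Eno2, the enolase named for neurons (ENSMUSG00000004267, chr6:124760053-124769673, minus strand), rested on 39 to 55 counts per sample. It measured 2.01, 4.17, 3.04 and 3.47 CPM in hypoxia and 3.12, 3.67, 3.9 and 4.14 CPM in normoxia. The samples were mixed, and hypoxia replicate 2 was the highest of all 8. The log2 change was 0.25 with a 95% interval from -0.2 to 0.7 (adjusted p = 0.39, limma-trend), so that no difference was detected. Per length, Eno2 made up 0.0828%, 0.244%, 0.141% and 0.178% of enolase reads in hypoxia and 0.199%, 0.286%, 0.255% and 0.289% in normoxia. This share was higher in normoxia in 4 of 4 pairs, yet the groups overlapped and the two-sided exact permutation test gave p = 0.0571 (n = 4 per group).

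Pkm, which passes the phosphate of phosphoenolpyruvate to ADP and yields pyruvate (ENSMUSG00000032294, chr9:59656368-59679375, plus strand), held the most reads of the 10 genes in every sample. Its levels were 2187, 1463, 1852 and 1649 CPM in hypoxia and 2006, 1589, 1858 and 1649 CPM in normoxia. Each normoxic sample lay close to the hypoxic sample of its number, and the normoxic range fell inside the hypoxic one. The means of 1788 ± 310 and 1776 ± 192 CPM (SD, n = 4) gave a log2 change of -0.00 (SE 0.12, adjusted p = 1.0, limma-trend) with a 95% interval from -0.26 to 0.26. Counts per gene cannot separate the 2 splice forms of Pkm, M1 and M2.

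Ldha encodes the lactate dehydrogenase subunit that dominates in glycolytic tissue (ENSMUSG00000063229, chr7:46841475-46855627, plus strand). It was present at 1517, 998, 1329 and 1258 CPM in hypoxia and at 1030, 837, 946 and 938 CPM in normoxia. One hypoxic sample, replicate 2, lay below normoxia replicate 1, and the other hypoxic samples lay above every normoxic one. The mean fell from 1276 ± 215 to 938 ± 79.2 CPM (SD, n = 4), a log2 change of -0.43 (SE 0.11, adjusted p = 0.011, limma-trend).

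Ldhb encodes the other subunit of the same tetramer, and the share of Ldha per length in their sum was 97.8%, 96.6%, 97.3% and 97.1% in hypoxia and 96.2%, 95.1%, 95.9% and 95.9% in normoxia. Every normoxic sample was below every hypoxic one. The mean share fell from 97.2% ± 0.505 to 95.8% ± 0.463 (SD, n = 4), with p = 0.0286 in the two-sided exact permutation test, the smallest value that 4 against 4 samples allow, and 0.0571 after adjustment over the 3 shares. Ldhb itself was at 26 ± 1.23 CPM in hypoxia and 29.5 ± 0.94 CPM in normoxia (SD, n = 4), with a log2 change of 0.18 (SE 0.069, adjusted p = 0.062, limma-trend).

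**Figure D2:**
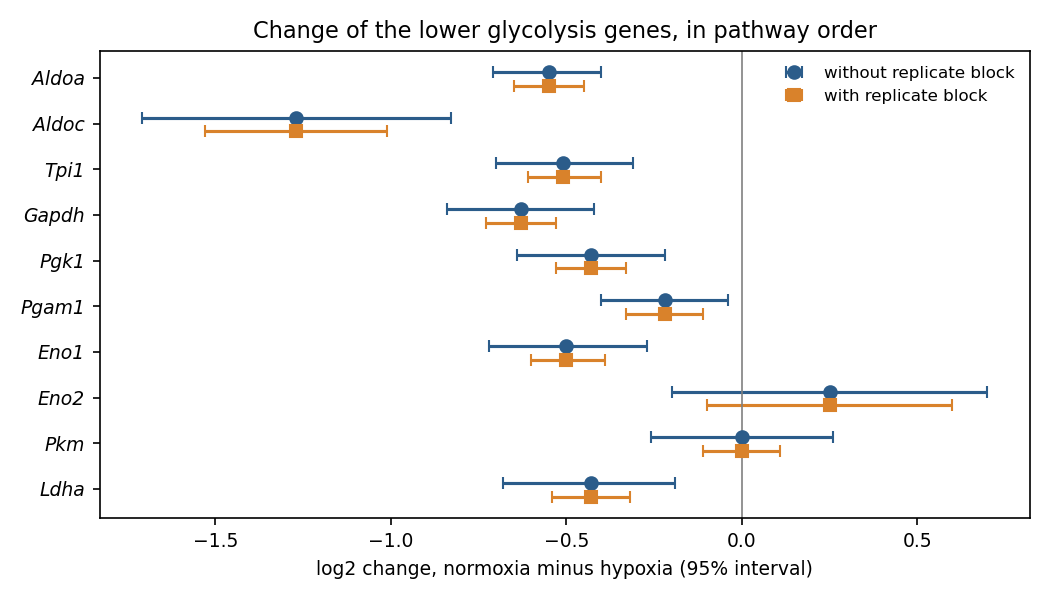
Log2 change, normoxia minus hypoxia, of the 10 genes in pathway order from limma-trend without (circles) and with (squares) the replicate number as a block, with bars for the 95% interval. Aldoc lies farthest to the left at -1.27, 6 further genes lie between -0.63 and -0.43, Pgam1 at -0.22 changes its call with the block, and Eno2 and Pkm span 0.

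Of the 10 genes 7 were lower in normoxia, beside 16.5% of all genes tested, and the count was also 7 without the deep library of hypoxia replicate 1. None was called higher by limma-trend, edgeR, DESeq2 or limma-voom, and none was higher at an unadjusted p under 0.05 in limma-trend. Pgam1 made 8 lower with the replicate number as a block, a fit that called 46% of all genes, with 22.7% lower and 23.3% higher. Hypoxia and normoxia did not overlap, with normoxia lower, for 6 of the 10 genes and for 15.5% of all genes. In 4 of 4 same-numbered pairs 8 of the 10 were lower, as were 26.8% of all genes. The median log2 change of the 10 was -0.465, with a range from -1.27 to 0.25, and that of all tested genes was 0.005.

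The pairs also showed how alike the decreases were. Among the 7 called genes, the pair differences on the log2 scale ran from -0.62 to -0.51 for Aldoa, the narrowest range, from -0.56 to -0.26 for Ldha and from -1.38 to -1.02 for Aldoc, the widest. For Pkm the differences of pairs 1 to 4 were -0.12, 0.12, 0.00 and 0.00. Replicate 2 gave the smallest difference for Tpi1, Gapdh, Pgk1, Eno1 and Ldha, and replicate 1 the largest.

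Summed over the 10 genes, the level was 10647, 7660, 9589 and 8874 CPM in hypoxia and 7566, 6266, 7262 and 6851 CPM in normoxia. The lowest hypoxic sample was thus just above the highest normoxic one. The sums averaged 9193 ± 1250 and 6986 ± 563 CPM (SD, n = 4). As a share of all counts the 10 genes took 0.738% to 1.01% in hypoxia and 0.648% to 0.774% in normoxia.

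The order of the enzymes was read per length, with near-identical copies left out unless stated. Per kilobase of coding transcript the order of mean levels in hypoxia was Gapdh at 1050 CPM per kb, Aldoa at 759, Eno1 at 736, Pkm at 735, Ldha at 703, Pgk1 at 510, Tpi1 at 450 and Pgam1 at 172 CPM per kb, with Aldoc at 3.78 and Eno2 at 1.14 CPM per kb far below. Gapdh was above Aldoa in 4 of 4 hypoxic samples, while Aldoa, Eno1 and Pkm each exceeded the next gene in 3 of 4 samples and were not separable from it, and Ldha exceeded Pgk1 in all 4. In normoxia Pkm stood at 730 CPM per kb and was above Gapdh, at 674 CPM per kb, in 4 of 4 samples. This order of Pkm and Gapdh rests on leaving out the copies of Gapdh. With the copies of both genes added, Gapdh was at 1880 ± 241 CPM per kb in hypoxia and 1210 ± 97.1 CPM per kb in normoxia (SD, n = 4), above Pkm in 4 of 4 samples of each condition. Eno1, Ldha and Aldoa followed at 519, 517 and 516 CPM per kb and were not separable, since Eno1 exceeded Ldha in 1 of 4 samples and Ldha exceeded Aldoa in 1 of 4. Pgk1, Tpi1, Pgam1, Aldoc and Eno2 kept their places at 378, 315, 147, 1.5 and 1.33 CPM per kb.

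**Figure D3:**
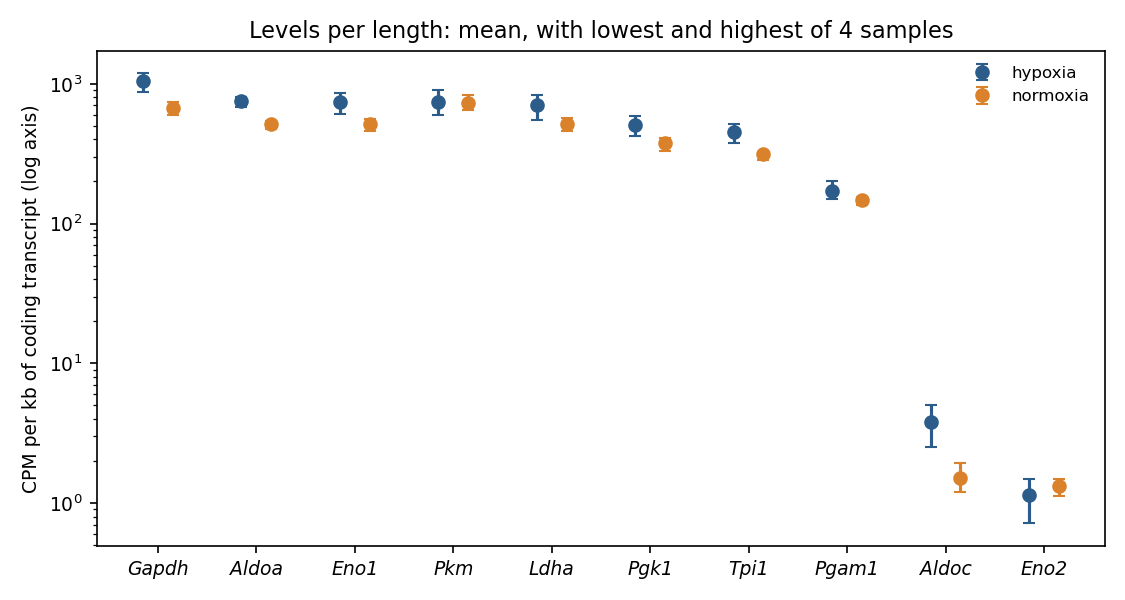
Mean CPM per kilobase of coding transcript (log axis) of the 10 genes, ordered by the hypoxic mean, with bars from the lowest to the highest of 4 samples. Without near-identical copies Gapdh is highest at 1050 in hypoxia and Pkm at 730 in normoxia, with them Gapdh is above Pkm in both (1880 and 1210, not drawn), and Aldoc (3.78 and 1.5) and Eno2 (1.14 and 1.33) lie far below the other enzymes.

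Since Pkm kept its mean level while its neighbours fell, its ratio to each of the other 9 genes was compared within samples, a test chosen after the levels had been seen. The log2 ratio of Pkm to Eno1, the step before it, was 0.23 to 0.32 in hypoxia and 0.67 to 0.82 in normoxia. Its ratio to Ldha, the step after it, was 0.39 to 0.55 in hypoxia and 0.81 to 0.97 in normoxia. For Gapdh the ranges were 0.21 to 0.37 and 0.81 to 0.94. The ranges did not overlap, with normoxia higher, for 8 of the 9 genes, each with p = 0.0286 in a two-sided exact permutation test (n = 4 per group) and 0.0321 after adjustment over 9 ratios. Eno2 was the exception, with ranges of 8.45 to 10.09 and 8.64 to 9.33 (exact permutation p = 0.6). These ratios share the Pkm values and are not independent of one another. Pkm was picked because its mean level was kept, so the ratios largely restate the lower levels of the other genes. Their p-values are thus no separate support for those decreases. The share of all tested genes whose ratio to Pkm separates the conditions was not computed.

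**Figure D4:**
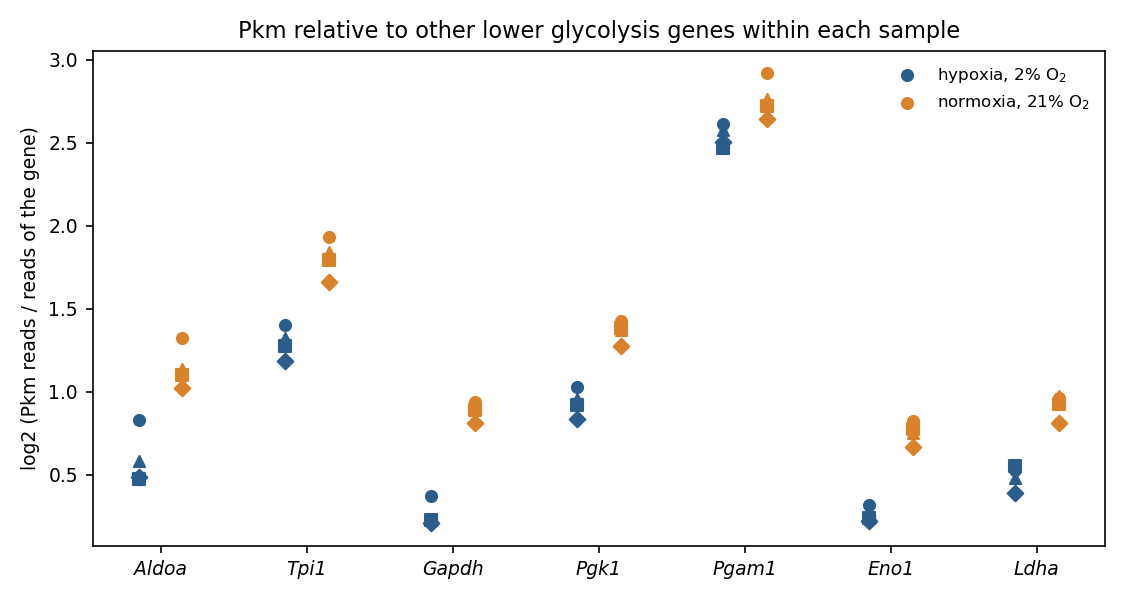
Log2 ratio of Pkm reads to the reads of 7 other genes of the set in each of 4 hypoxic (left of each label) and 4 normoxic samples (right), with one marker shape per replicate number. The normoxic points lie above all hypoxic points for each of the 7 genes, as for Eno1 at 0.67 to 0.82 above 0.23 to 0.32, and the ratios to Aldoc and Eno2 are not drawn because they lie above 7.

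Across the 8 samples the genes of the set differed in how well they tracked each other. Pearson's r with the mean of the standardized log2 CPM of the other 9 was 0.901 to 0.99 for Aldoa, Tpi1, Gapdh, Pgk1, Pgam1, Eno1 and Ldha, 0.715 for Aldoc, 0.334 for Pkm and -0.742 for Eno2. All 8 samples share the contrast between conditions, so these values describe it as well as the spread within conditions. Of 9387 other genes with a mean log2 CPM of at least 3, the 5 most like the mean of the set were Bckdk (r = 0.992), Ube2m (0.992), Rpsa-ps10 (0.988), Gm2574 (0.988) and Trp53 (0.985), and 350 genes had r over 0.9.

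Genes elsewhere in the pathway were read from lists of 63 further genes, of which 49 were tested and 6 had no count in any sample. Of the 49, 14 were lower and 3 higher in normoxia, beside 16.5% and 18% of all tested genes. With the replicate number as a block these were 18 and 10, beside 22.7% and 23.3% of all tested genes. The same shares of all genes stand beside the counts of each list below. In the list of other isoforms of the same steps, 5 of 13 genes were tested and none was called by limma-trend, edgeR, DESeq2 or limma-voom, with 1 of the 5, Ldhb, at an unadjusted p under 0.05 in limma-trend. With the block 1 was lower, Eno1b, and 2 were higher, Ldhb and Pgam2. Pgk2 and Pklr, the phosphoglycerate kinase of testis and the pyruvate kinase of liver and red cells, were at 0 in all samples. Eno1b, a gene close in sequence to Eno1, stood at 8.94 ± 1.44 CPM in hypoxia and 7.12 ± 1.25 CPM in normoxia (SD, n = 4; log2 change -0.32, adjusted p = 0.13, limma-trend).

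Before aldolase, 13 of 15 genes of glucose entry and upper glycolysis were tested. In limma-trend 4 were lower and none higher, as with edgeR, DESeq2 and limma-voom, beside 16.5% and 18% of all tested genes in limma-trend. At an unadjusted p under 0.05 in limma-trend 5 were lower and none higher. The added gene was Hk3 (log2 change -0.69, adjusted p = 0.075, limma-trend). Gpi1, the glucose-6-phosphate isomerase, had a log2 change of -0.47 (adjusted p = 0.00037), and the phosphofructokinases Pfkl and Pfkp had -0.41 (adjusted p = 0.0022) and -0.38 (adjusted p = 0.0039, all limma-trend). The glucose transporter Slc2a1 changed by -0.40 (adjusted p = 0.0018, limma-trend). The hexokinase Hk1 (log2 change -0.10, adjusted p = 0.22) and Pfkfb3, which makes an activator of phosphofructokinase (0.05, adjusted p = 0.78, both limma-trend), were not called.

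Beyond pyruvate, all 18 genes of pyruvate and lactate fate were tested, with 7 lower and 3 higher, beside 16.5% and 18% of all tested genes. Slc16a3, which exports lactate, was lowest in normoxia at a log2 change of -0.64 (adjusted p = 0.01, limma-trend). The pyruvate dehydrogenase kinases, which switch off the entry of pyruvate into the citric acid cycle, were split. Pdk1 and Pdk2 each changed by -0.46 (adjusted p = 0.00046 and 0.0023) and Pdk3 by -0.20 (adjusted p = 0.024). Pdk4 changed by 0.53 (adjusted p = 0.003, all limma-trend). The subunits Dld and Pdha1 of pyruvate dehydrogenase rose by 0.50 (adjusted p = 0.00024) and 0.34 (adjusted p = 0.0008, both limma-trend) on the log2 scale. Dlat, another subunit (0.03, adjusted p = 0.76), and the phosphatase Pdp1 (-0.50, adjusted p = 0.059, both limma-trend) were not called. Among branches from the lower pathway 1 of 11 was lower, the serine synthesis gene Psat1 at -0.42 (adjusted p = 0.03, limma-trend). Of 7 genes listed for gluconeogenesis only 3 were tested, and 2 had no count in any sample. Among the 3 tested, 2 were lower, Pck2 at -0.48 (adjusted p = 0.00022) and G6pc3 at -0.45 (adjusted p = 0.00032, both limma-trend). Phgdh and Glo1 in the former list, at -0.24 and 0.02, and Pcx in the latter, at 0.15, missed the threshold with adjusted p of 0.087, 0.81 and 0.059 (limma-trend).

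**Figure D5:**
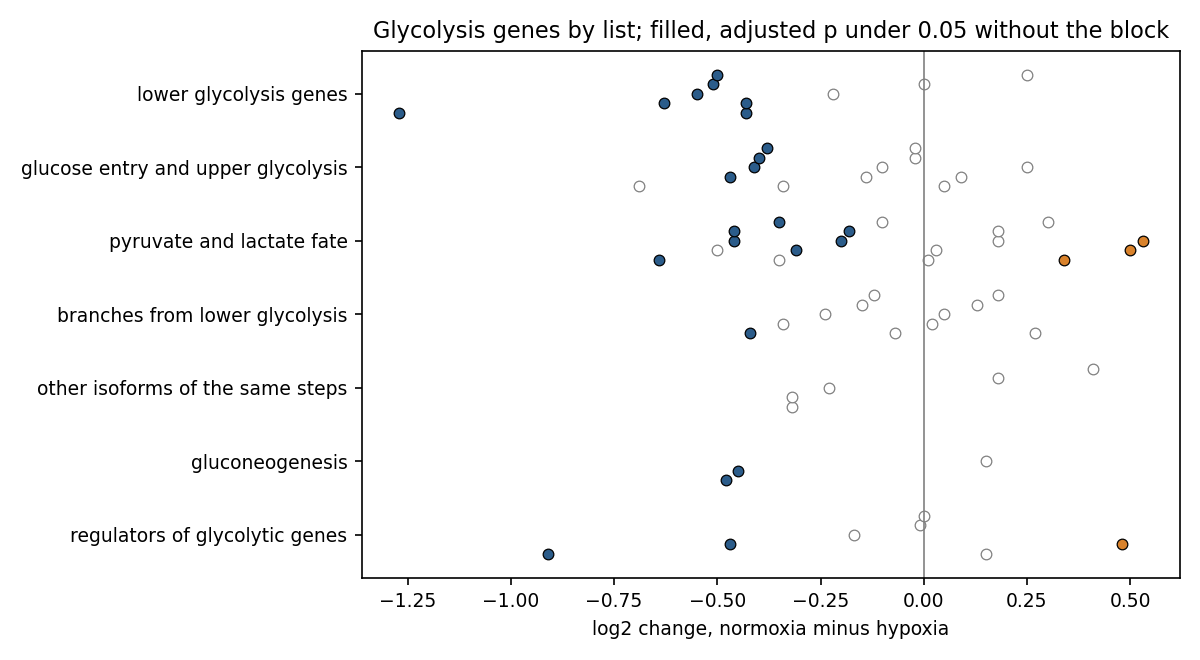
Log2 change, normoxia minus hypoxia, of each tested gene in the 10-gene set and 6 lists of glycolysis genes, 1 point per gene, filled blue where called lower, filled orange where called higher and open where not called (limma-trend without block). The set has 7 filled blue points of 10 and the upper pathway 4 of 13, beside 16.5% of all tested genes called lower. Orange points occur in the lists of pyruvate fate and of regulators.

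The regulators and other HIF targets were read alongside the set. Among all tested genes 16.5% were called lower and 18% higher. Of 7 regulators 2 were lower, Egln3 at a log2 change of -0.91 (adjusted p = 0.0002) and Egln1 at -0.47 (adjusted p = 0.00067, both limma-trend). They encode oxygen-sensing prolyl hydroxylases and are themselves HIF targets. Hif1a RNA was higher, at 0.48 (adjusted p = 0.0005), and Arnt and Myc, at 0.00 and 0.15, were not called (adjusted p = 0.98 and 0.43, all limma-trend). Of 10 HIF targets outside glycolysis 5 were lower, led by Car9, a carbonic anhydrase, at -2.34 (adjusted p = 9.8e-06), Ankrd37 at -0.80 (0.027), Ndrg1 at -0.38 (0.0015) and Bnip3 at -0.26 (0.042, all limma-trend). None was higher, with limma-trend, edgeR, DESeq2 or limma-voom or at an unadjusted p under 0.05 in limma-trend, and P4ha1 and P4ha2, at 0.01 and -0.15, were not called. Among 4 splicing factors that act on Pkm, Hnrnpa2b1 was higher at 0.23 (adjusted p = 0.029), and Hnrnpa1 and Ptbp1 were not called (-0.19 and -0.12, adjusted p = 0.13 and 0.2, all limma-trend).

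Because Gapdh and Pgk1 often serve as reference genes, they were set beside 12 others in a list of 14. The shares of all tested genes were 16.5% lower and 18% higher. Of the 14, 4 were lower, namely Gapdh, Pgk1, Ppia at a log2 change of -0.37 (adjusted p = 0.0025) and Actb at -0.22 (adjusted p = 0.046), and 3 were higher, among them Tfrc at 1.81 (adjusted p = 0.00018) and Ywhaz at 0.20 (adjusted p = 0.015, all limma-trend). B2m and Sdha, at -0.25 and 0.07, were not called (adjusted p = 0.079 and 0.28, limma-trend). Gapdh had the most negative change of the 14.

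Markers of the sorted population and of other cells were measured in the same samples. The shares of all tested genes were 16.5% lower and 18% higher, and 22.7% and 23.3% with the replicate number as a block. All 11 stromal markers were tested, and their summed level was 4420 to 5280 CPM in hypoxia and 4680 to 5060 CPM in normoxia. Of these 1 was lower, Eng at a log2 change of -0.27 (adjusted p = 0.043), and 3 were higher, Cd44 at 0.72 (0.013), Nt5e at 0.59 (0.0024) and Itgb1 at 0.44 (0.001, all limma-trend), and with the block 5 were lower and 5 higher. All 9 blood and macrophage markers were detected in spite of the CD45- gate, Ptprc (CD45) at 13 ± 3.59 and 13.8 ± 4.18 CPM (SD, n = 4), with sums of 513 to 1020 and 617 to 1160 CPM. Of these 1, Lyz2, was higher (log2 change 0.56, adjusted p = 0.022, limma-trend). None was lower without the block in limma-trend, edgeR, DESeq2 or limma-voom, with 1, Csf1r, at an unadjusted p under 0.05 in limma-trend, and 5 were lower and 1 higher with the block. In bulk RNA, fewer cells of a type and less RNA per cell cannot be told apart. Among erythroid markers 5 of 6 were at 0 and the other, Alas2, had a single count, and among neutrophil markers 3 of 5 were at 0, with sums up to 0.433 CPM. Endothelial markers summed to 1.62 to 2.65 and 1.28 to 2.09 CPM, with Emcn at 0, and adipocyte markers to 45.2 to 79.3 and 63.9 to 119 CPM. The muscle list summed to 24.6 to 39.1 and 9.15 to 14.3 CPM, nearly all of it Acta1, with Ckm and Myh4 at 0. The sum of the osteoblast markers was lower in normoxia, as were the 7 called genes of the set. It was 50000 to 58600 CPM in hypoxia and 30500 to 33100 CPM in normoxia, most of it Col1a1, with 3 of 5 tested markers lower. The part of these other cell types or states in the lower levels of the glycolysis genes was not tested.

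GC content and transcript length moved some values. With their trends removed from each sample, the log2 change was -0.35 for Aldoa (adjusted p = 0.0018), -0.31 for Eno1 (adjusted p = 0.047), -0.12 for Pgam1 (adjusted p = 0.3) and 0.18 for Pkm (adjusted p = 0.32, all limma-trend), and the same 7 genes were called. With that correction and the replicate block together, Pkm was called higher in normoxia, at 0.18 (adjusted p = 0.0016, limma-trend).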

How the data were processed

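Per the methods of the study, the authors prepared libraries from total RNA with the NEBNext Ultra II kit, sequenced them as single-end Illumina reads, and ran the zUMIs pipeline, with STAR for mapping to mm10 and featureCounts for counting per gene of an Ensembl annotation. They deposited raw counts per gene, whole numbers that are not normalized, for 8 samples and 53465 genes. Strand, introns and the handling of reads with several places are not stated for these counts, so overlapping and near-identical genes are uncertain. No column of other samples was present (0 columns). Symbols and positions were taken from GENCODE M21 on GRCm38, the assembly of the labels, for 53274 identifiers. Counts without a symbol were 0.0216% of all.

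Genes were kept with edgeR 4.0.16 (filterByExpr, minimum count 5), which left 14369 genes with 99.9% of the counts. Log2 CPM with TMM factors and a prior count of 3 was fitted with limma 3.58.1 (limma-trend) in R 4.3.3, 4 normoxic against 4 hypoxic samples, with Benjamini-Hochberg adjustment over all tested genes and a threshold of 0.05. The filter, limma-trend, the threshold and the absence of a block follow the methods of the study, while the TMM factors and the prior count were chosen here. Shares and ratios within samples were compared by two-sided exact permutation over the 70 assignments, where the smallest p is 0.0286. Levels per kilobase used the longest coding transcript. The fits were tested on simulated data. Replicate pairs within a condition differed beyond counting noise (chi-square per degree of freedom of at least 3.86), so each sample was counted once.

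Replicate numbers are shared between conditions, and nothing in the labels says what a number marks. Deviations from the condition means correlated between samples of the same number at r = 0.47, 0.28, 0.25 and 0.17, each above the sample's correlation with any other number (at most 0.08). The study describes the sorted cells as divided between the conditions, but ties no number to a division. The numbers were taken to pair the samples from these correlations, and a blocked fit was run. The fit without the block and the permutation tests did not use the pairing. Pgam1 was the one member whose call it changed, to an adjusted p of 0.0015 in limma-trend with the block.

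Alternatives were edgeR's quasi-likelihood test, DESeq2 1.42.0, limma-voom, other scaling, filter, prior count and threshold, hypoxia replicate 1 thinned to 13164251 counts, GC and length correction, Eno1 and Eno1b added, and each sample left out. Adding near-identical copies (blastn 2.17.0, at least 95% identity over at least 300 bases) was chosen after seeing the data, as was the Pkm ratio. The members and lists were chosen with earlier results of these data known. From each list up to 4 called genes with the largest change and up to 2 uncalled genes with the highest level were named, and the 5 genes most like the set. Pgam2, Hk3, Pdha1, Pdk2 and Pdk3 and markers with a count of 5 or fewer were named outside this rule after their values were seen. Some genes of these lists are not reported here by name.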

Additional observations from a re-analysis of the deposited data

Results flagged for a closer look

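In hypoxia, replicate 1 held 25132141 counts, whereas the other hypoxic samples held 12929564 to 13219647, a gap of 0.976 of the range of the condition. The 7 genes of the set called lower in normoxia were also called without this sample and with its counts thinned to 13164251.

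Tpi1 in normoxia replicate 2 was at 458 CPM, below the 518 to 526 CPM of the other normoxic samples, a gap of 0.89 of the range. The Tpi1 call was kept without this sample. Such gaps were sought in 30 sets of 4 samples, of which chance alone would mark about 1.5, and 2 were found.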

How the results depend on the processing

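Over 23 alternatives (24 for Eno1), Aldoa, Aldoc, Tpi1, Gapdh, Pgk1 and Eno1 kept their direction and call, and Ldha lost its call only at a threshold of 0.01. Leaving out 1 sample gave 7 to 8 genes of the set lower and 0 higher. Only GC and length correction with the replicate block called a member higher (1, Pkm). Pgam1 passed in 7 alternatives. The Pkm change, -0.00, turned positive at 0.00 with limma-voom and with hypoxia replicate 1 thinned, 0.09 with total counts, and 0.18 with GC and length correction with or without the block, and ran from -0.09 to 0.10 with 1 sample left out. Other glycolysis genes called lower were 9 with total counts and 8 at a threshold of 0.01, against 14, and 10 to 15 with 1 sample left out. Those called higher, 3, were 9 with total counts, 6 with GC and length correction, 7 with that and the block, 10 with the block, and 9 with the block and copies added. They were 3 to 4 with 1 sample left out. The block changed no call among the members other than Pgam1. The cause of these shifts was not tested. With 1 sample left out, the differences in percentage points ran from -0.269 to -0.166 for the Aldoc share, from 0.0697 to 0.123 for the Eno2 share and from -1.60 to -1.18 for the Ldha share, without a test because 4 against 3 samples cannot go below 0.0571. Depth limits Eno2 (39 to 55 counts) and Aldoc (45 to 179 counts).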
